A study of Mus musculus with 12 samples.

Results

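Immune checkpoint ligands are the surface proteins, and here also 1 enzyme and 1 secreted lectin, by which a tumour cell restrains or engages the lymphocytes and phagocytes that meet it. The transcripts of 10 such mouse genes were taken by symbol from a table of 27179 genes: Cd274, Pdcd1lg2, Cd80 and Cd276 of the B7 family, the poliovirus receptor relatives Pvr and Nectin2, Cd47, Tnfrsf14, Lgals9 and Ido1. They were listed by symbol and role, with earlier results of these data known. PD-L1, encoded by Cd274, binds PD-1 on activated T cells and dampens their signalling, and its transcription rises with interferon-gamma. CD47 binds SIRP-alpha on macrophages and blocks engulfment, while PVR (CD155) and nectin-2 (CD112) are read by the inhibitory receptor TIGIT and the activating receptor CD226. IDO1 consumes tryptophan and is, like PD-L1, a classical interferon-gamma target.

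The cells were MC38-idAdpgkG, an engineered form of MC38, a C57BL/6 mouse colon carcinoma line, and their poly(A) RNA was sequenced. The cells carry a doxycycline-inducible, degradable Adpgk(R304M), a mutated ADP-dependent glucokinase that serves as a neoantigen, fused to turboGFP. The series was made for work on the detection of peptides displayed by MHC class I. There were 4 groups of 3 libraries, and mouse interferon-gamma at 20 ng/mL was present in every one, the controls included. Control cells were kept in it for 51 h with no other agent. Doxycycline cells had interferon-gamma and 1 µg/mL doxycycline over the same 51 h. The dTag13 group had interferon-gamma for 48 h and then 1 µM dTAG-13, a degrader molecule that recruits a tagged protein to cereblon, for 3 h. The Doxycycline+dTag13 group had interferon-gamma and doxycycline for 48 h before the same 3 h of dTAG-13. No group lacked interferon-gamma, so the response of these ligands to interferon-gamma itself was not measured.

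Within a group, the 3 libraries were technical repeats from 1 biological sample. Adjusted p-values therefore measure only the spread between libraries of 1 culture, and any difference called below is one between 2 cultures. Library totals ran from 22165538 to 32809573 counts. Adpgk was measured at 157.6 to 162.0 CPM (reads scaled to library size) in the Control libraries and at 1316 to 1355 CPM in the Doxycycline libraries. It was at 176.7 to 184.9 CPM in the dTag13 libraries and at 1351 to 1379 CPM in the Doxycycline+dTag13 libraries. Of 11 colon epithelial markers, none reached a mean of 1 CPM and Epcam, Cdx2 and Muc2 had no read. Of 8 fibroblast markers, 5 did reach it, Vim and Col3a1 among them. The other 3, Col1a1, Col1a2 and Thy1, had 24, 54 and 2 reads in all. The labelled colon carcinoma identity is thus not visible in epithelial transcripts. The summed level of the fibroblast markers was 2661 to 2710 CPM in Control, 2718 to 2763 in Doxycycline, 2300 to 2335 in dTag13 and 2183 to 2245 in Doxycycline+dTag13. Single markers within that sum went in opposite directions. Vim was at 1502 CPM in Control and 1296 in Doxycycline, and Col3a1 at 850 and 1105 in that order. The part of the fibroblast markers in the results below was not tested. Markers of T and natural killer cells summed to at most 0.138 CPM in any library, with 7 of 8 at 0, pan-leukocyte markers to at most 0.282 CPM and B cell markers to at most 0.0971 CPM. Of 9 myeloid markers, 1 had no read and 2, Cd14 and Cd68, reached a mean of 1 CPM. Their summed level was 7.78 to 8.21 CPM in Control, 7.28 to 9.20 in Doxycycline, 9.61 to 10.4 in dTag13 and 10.4 to 10.9 in Doxycycline+dTag13, higher in every library with dTAG-13 than in any without it. The part of these markers in the results was not tested. Fewer cells of a kind and less RNA per cell cannot be told apart in such bulk libraries.

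A pair of neighbours on chromosome 19 opens the set. Cd274 (Entrez 60533) lies at chr19:29362107-29388095 on the plus strand of GRCm38, and Pdcd1lg2 (Entrez 58205), which encodes the other PD-1 ligand PD-L2, follows 22823 bases downstream at chr19:29410919-29472927 on the same strand. Cd274 was the most highly counted member of the B7 family here and Pdcd1lg2 was near 0. Their promoters are shown for that contrast, as the 250 bases before a start annotated in RefSeq on GRCm38.p6, at chr19:29367188-29367437 and chr19:29410669-29410918. The Cd274 window lies within the gene span given above, so the start used is not the outermost one. Lgals9 and Tnfrsf14 are shown because theirs were the only 2 of the 8 available member promoters that held a pair of interferon regulatory factor half-sites, searched on both strands as GAAA, any 2 bases and GAAA again. These lie at chr11:78984925-78985174 and chr4:154928078-154928327, both on the minus strand. The Tnfrsf14 window, like that of Cd274, lies within the span of its gene. Capitals mark the pair, which starts 55 bases before the start used for Lgals9 and 64 bases before that used for Tnfrsf14. The pair is read here on the opposite strand.
Cd274: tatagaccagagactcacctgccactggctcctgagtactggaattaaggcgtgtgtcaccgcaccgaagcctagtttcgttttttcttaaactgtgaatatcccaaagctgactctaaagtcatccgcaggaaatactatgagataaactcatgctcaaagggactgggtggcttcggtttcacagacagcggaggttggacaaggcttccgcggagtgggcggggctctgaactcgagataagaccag
Pdcd1lg2: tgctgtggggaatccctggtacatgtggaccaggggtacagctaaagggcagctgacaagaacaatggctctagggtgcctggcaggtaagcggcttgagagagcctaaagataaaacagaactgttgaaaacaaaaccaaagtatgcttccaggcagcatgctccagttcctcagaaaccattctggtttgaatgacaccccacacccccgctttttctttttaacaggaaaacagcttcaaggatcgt
Lgals9: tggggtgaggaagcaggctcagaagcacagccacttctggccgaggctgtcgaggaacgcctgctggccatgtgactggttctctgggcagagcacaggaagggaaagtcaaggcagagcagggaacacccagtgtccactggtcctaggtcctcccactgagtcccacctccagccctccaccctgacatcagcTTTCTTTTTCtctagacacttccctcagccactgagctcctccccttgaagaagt
Tnfrsf14: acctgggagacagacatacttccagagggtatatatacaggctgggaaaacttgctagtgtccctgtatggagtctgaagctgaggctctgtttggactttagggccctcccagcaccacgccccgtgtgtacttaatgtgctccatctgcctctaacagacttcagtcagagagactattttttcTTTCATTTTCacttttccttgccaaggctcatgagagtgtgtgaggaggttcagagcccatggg
The paired half-site occurred in 2.98% of 32851 RefSeq promoters of this length. The gamma-activated sequence TTCNNNGAA, searched the same way, occurred in 7.02% of them and in none of the 8 member promoters. These matches are descriptions of letters in a window and do not mark bound sites. The promoters of Cd47, Nectin2, Cd80 and Cd276 held neither motif, and Ido1 and Pvr had no entry. The windows of Cd47 and Cd80 also lie within their gene spans, and other starts of these genes were not searched.

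The members spanned a wide range of transcript abundance. Levels are compared between genes as CPM per kb of exon, where CPM is edgeR's normalised read count on library sizes scaled by its TMM factors (trimmed mean of M values) and the length is the union of the annotated exons. Averaged over the 12 libraries, Cd274 stood at 26.6 CPM per kb, Pvr at 18.1, Cd47 at 11.9 and Nectin2 at 6.35. Tnfrsf14 stood at 2.72 CPM per kb, Lgals9 at 0.744 and Ido1 at 0.237. The remaining 3 were lower by more than an order of magnitude, with Cd276 at 0.0137, Pdcd1lg2 at 0.00430 and Cd80 at 0.00400 CPM per kb. In the Control libraries, Cd274 lay at percentile 78.7 of the tested genes with a known length, Pvr at 73.0, Cd47 at 57.0 and Nectin2 at 42.3, while Tnfrsf14 lay at 27.7, Lgals9 at 12.1 and Ido1 at 4.28. The order of the leading pair depends on the length used. Per kb of the longest annotated transcript, Pvr stood at 38.1 CPM and Cd274 at 26.6 CPM, since the exons of Pvr cover 6122 bases and its longest transcript 2905.

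**Figure D1:**
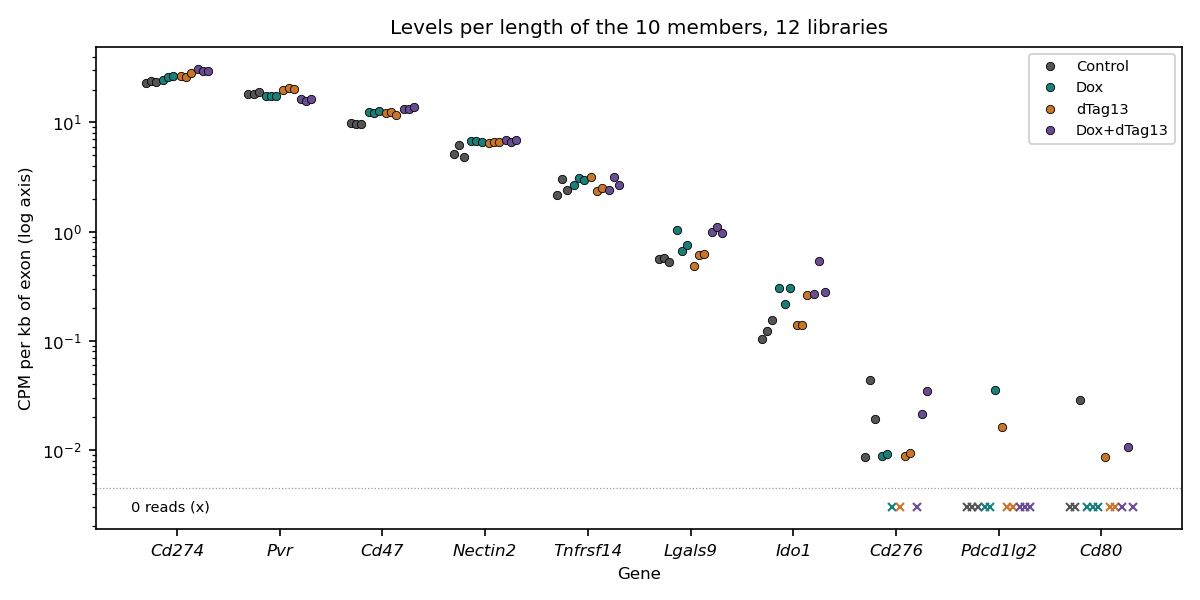
Level of each of the 10 genes in each of the 12 libraries, in TMM-scaled CPM per kb of exon on a log axis, coloured by group (Dox stands for Doxycycline), with crosses below the dotted line for libraries with 0 reads. Cd274, Pvr, Cd47, Nectin2 and Tnfrsf14 lie above 1 CPM per kb in every library, and most libraries have no read of Pdcd1lg2 or Cd80.

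Genes were tested if they passed a filter on low counts of about 10 reads, or 0.332 CPM, in 3 libraries, which 7 of the 10 members did. Ido1 passed only through the groups with doxycycline: 3 of 3 Doxycycline and 3 of 3 Doxycycline+dTag13 libraries lay above that level, against 0 of 3 Control and 1 of 3 dTag13 libraries. A gene is called where the edgeR quasi-likelihood test gives a Benjamini-Hochberg adjusted p under 0.05 over all 12910 tested genes. The comparison of Doxycycline with Control shows which ligands differ with the drug and the induced transgene together. No group had doxycycline without the transgene, so these 2 cannot be told apart. Since Ido1 was tested only because its reads were higher with doxycycline, it is left out of the counts and medians here and described by its reads further on. Of the other 6 tested members, 5 were called, 4 higher and 1 lower, where 33.5% of all tested genes were called, 14.8% higher and 18.7% lower. The median log2 fold change of the 6 was 0.26, against -0.01 over all tested genes. That count was 3 without Control replicate 3, 3 without Doxycycline replicate 1, and 3 when replicate 3 of Control, Doxycycline and Doxycycline+dTag13 was left out together, these being the libraries that stood apart from both others of their group. Cd274, Cd47 and Nectin2 were the 3 still called in the last of these, and the other comparisons had 4, 3, 4 and 2 calls there. dTag13 against Control called 4 members, all higher, where 62.1% of tested genes were called and 30.0% were higher. Doxycycline+dTag13 against Doxycycline called 3 members, 2 higher and 1 lower, beside 64.1% of tested genes (30.7% higher, 33.4% lower). That comparison joins dTAG-13 itself with any loss of the induced degradable protein, and these 2 cannot be told apart within it. In dTag13 against Control the transgene was not induced. Doxycycline+dTag13 against dTag13 called 4 members, 3 higher and 1 lower, beside 20.4% (10.7% higher, 9.64% lower). It is also written below as doxycycline on top of dTAG-13, although doxycycline came first and dTAG-13 only in the last 3 h. The interaction, which is the dTAG-13 difference with doxycycline minus that without it, called 3 members, all negative (1 after a correction of each library for the length and GC content of transcripts), beside 22.9% of tested genes, 13.2% positive and 9.64% negative. The medians of the 6 in these last 4 comparisons were 0.17, 0.07, 0.10 and -0.17, against 0.019, 0.0032, -0.00077 and 0.0053 over all tested genes. For both dTAG-13 comparisons the share of members called is thus near or below the share of all genes.

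**Figure D2:**
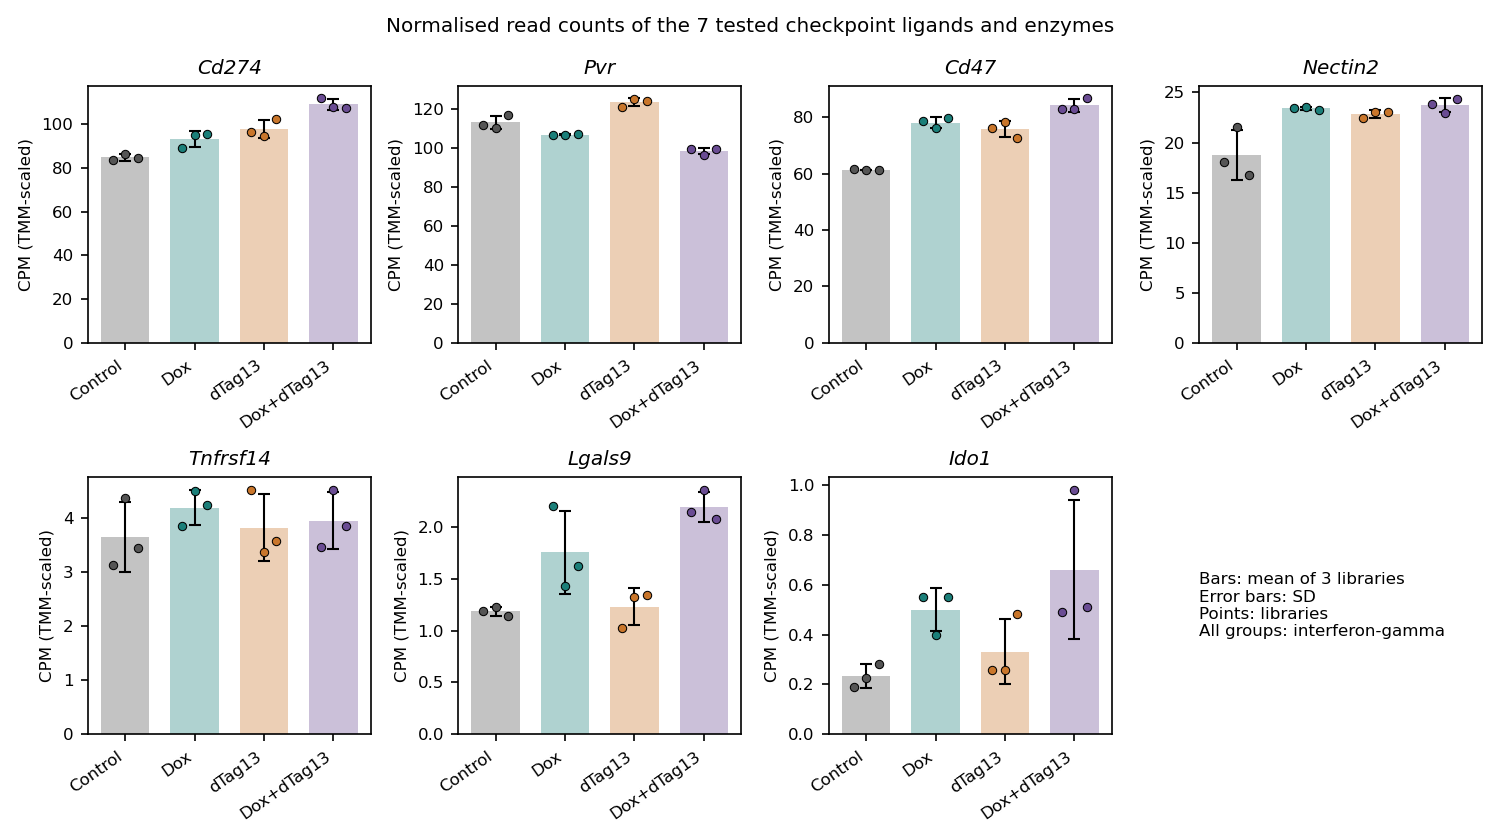
TMM-scaled CPM of the 7 tested genes by group (Dox stands for Doxycycline), with bars at the mean of 3 libraries, error bars of 1 SD and points for single libraries. Cd274 and Cd47 are lowest in Control and highest with both agents, Pvr is highest with dTAG-13 alone and lowest with both, and the Ido1 and Tnfrsf14 groups overlap with their neighbours.

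**Figure D3:**
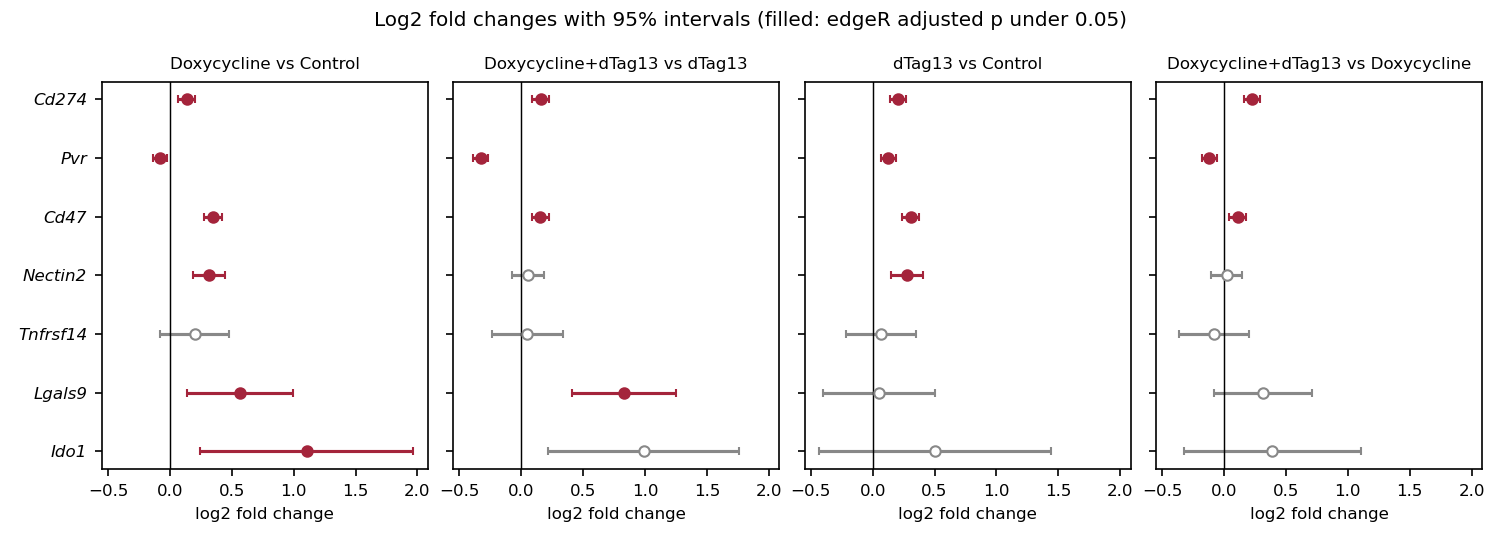
Log2 fold change with its 95% interval for the 7 tested genes in the 4 pairwise comparisons, filled where the edgeR adjusted p is under 0.05 (no call is read for Ido1). In each panel the interval of Ido1 is the widest and that of Lgals9 the next, and Pvr is the gene with values on both sides of 0 among its called differences.

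Cd274 was called in each of the 4 pairwise comparisons, always higher. The Control libraries held 83.5, 86.6 and 84.7 CPM of Cd274, from 2386 to 2689 reads, and the Doxycycline libraries 89.1, 95.2 and 95.5 CPM. The dTag13 libraries held 96.4, 94.7 and 103 CPM, and the Doxycycline+dTag13 libraries 112, 108 and 107 CPM. Every Control library lay below every treated library, and every library with both agents lay above all others, while Doxycycline and dTag13 overlapped. The group means were 84.9 ± 1.55 CPM in Control, 93.3 ± 3.61 in Doxycycline, 97.9 ± 4.15 in dTag13 and 109.1 ± 2.48 in Doxycycline+dTag13 (SD, n = 3 technical libraries), a span of 1.28-fold. Cd274 rose with doxycycline by 0.14 on the log2 scale (SE 0.0345, edgeR adjusted p 0.00200) and with dTAG-13 by 0.20 (SE 0.0344, adjusted p 1.99e-06). dTAG-13 on top of doxycycline added 0.22 (SE 0.0342, edgeR adjusted p 2.87e-07). Doxycycline+dTag13 lay 0.16 above dTag13 (SE 0.0341, edgeR adjusted p 0.000713). The interaction was 0.02 (SE 0.0485, adjusted p 0.816), with a 95% interval of -0.07 to 0.12. No called Cd274 difference lost its call under any of the alternatives run. Once each library was corrected for the length and GC content of transcripts, the dTag13 difference from Control was 0.126. An antisense gene shares 511 of the 3622 exonic bases of Cd274 (14.1%), and whether the counting used strand is not known.

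The genes whose centred log2 CPM over the 12 libraries lay nearest to that of Cd274, among the 9104 tested genes that averaged 10 CPM or more, were Skil, Igbp1 and Gm10132. Their root mean square differences from Cd274 were 0.0383, 0.0421 and 0.0435 log2 units, where Cd274 itself varied by 0.135 around its own mean. Skil had log2 fold changes of 0.10 with doxycycline, 0.20 with dTAG-13 and 0.25 with dTAG-13 on top of doxycycline, beside 0.14, 0.20 and 0.22 for Cd274.

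The other B7 members were hardly counted. Pdcd1lg2 had 3 reads in all, with 0 in 10 of the 12 libraries, 2 in Doxycycline replicate 3 and 1 in dTag13 replicate 1. Cd80 (Entrez 12519, chr16:38457430-38495958, plus strand), which encodes a ligand of CD28 and CTLA-4, had 5 reads, 3 of them in Control replicate 3. Cd276 (Entrez 102657, chr9:58524300-58555033, minus strand), which encodes B7-H3, had 18 reads and at most 5 in a library. Its summed reads were 8 in Control, 2 in Doxycycline, 6 in Doxycycline+dTag13 and 2 in dTag13, and 11.4% of its exonic bases are shared with a gene on the opposite strand. A count of 0 in a library still allows up to 3 counts, or 0.0914 to 0.135 CPM depending on the library. That limit and the counting intervals given for low genes cover counting error only. Differences in these 3 genes were not detectable at this depth. Of 6 further B7 family and butyrophilin genes found in the table, Icosl and Btn1a1 were tested, and Cd86 had 6 reads in all. Icosl had 372 reads and Btn1a1 96, and neither was called in any comparison, where 20.4% to 64.1% of all tested genes were called.

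Cd47 (Entrez 16423) lies at chr16:49851328-49912503 on the plus strand and encodes the SIRP-alpha ligand. Control libraries held 61.5, 61.2 and 61.3 CPM, Doxycycline libraries 78.7, 76.0 and 79.6, dTag13 libraries 76.2, 78.4 and 72.7, and Doxycycline+dTag13 libraries 83.0, 82.9 and 86.7. Control lay below every treated library, either agent alone gave overlapping levels, and both agents together lay above the rest. The means were 61.3 ± 0.142 CPM in Control and 84.2 ± 2.22 with both agents (SD, n = 3), a ratio of 1.37. Cd47 rose by 0.35 on the log2 scale with doxycycline (SE 0.0361, edgeR adjusted p 3.09e-10) and by 0.31 with dTAG-13 (SE 0.0362, adjusted p 1.25e-09). Between groups that shared the other agent the differences were smaller, at 0.11 for dTAG-13 (SE 0.0355, edgeR adjusted p 0.00681) and 0.15 for doxycycline (SE 0.0356, adjusted p 0.00137). The interaction was -0.20 (SE 0.0507, adjusted p 0.00388). After the length and GC correction it was -0.122 with an adjusted p of 0.0737, past the threshold no longer, and dTAG-13 on top of doxycycline was 0.176. That last difference also lost its call without Doxycycline replicate 2 (0.075) and without Doxycycline+dTag13 replicate 3 (0.084).

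The genes nearest to Cd47 in pattern by the same measure were Oxct1 (0.0422), Zfp131 (0.0469) and Cavin2 (0.0473 log2 units), where Cd47 varied by 0.172 around its own mean. Of the partners of CD47, Thbs1 and Thbs2 encode the secreted ligands thrombospondin-1 and thrombospondin-2, and Qpctl an enzyme that modifies CD47 for SIRP-alpha binding. Of these 3 tested genes doxycycline called 1 higher and 1 lower, where 33.5% of all tested genes were called, and dTAG-13 called 2 lower, where 62.1% were called and 32.1% were lower. Thbs1 went from 54.4 ± 2.62 CPM in Control to 78.4 ± 1.02 with doxycycline (log2 fold change 0.53, edgeR adjusted p 3.31e-13) and to 36.6 ± 0.762 with dTAG-13 (-0.57, adjusted p 4.48e-14; n = 3). With both agents Thbs1 was at 51.9 ± 3.80 CPM. Thbs1 thus went in opposite directions with the agents, where Cd47 was higher with each, with called differences of -0.60 for dTAG-13 on top of doxycycline and 0.50 for doxycycline on top of dTAG-13. The length and GC correction left the Thbs1 differences with dTAG-13 called at -0.343 and, on top of doxycycline, -0.311. Thbs2 was at 566.1 CPM in Control, 532.3 with doxycycline, 509.3 with dTAG-13 and 597.8 with both. Its doxycycline difference of -0.09 was not called when only library size was scaled (-0.052), and its dTAG-13 difference of -0.15 turned to 0.055 after the length and GC correction. Sirpa, the receptor gene, had 2 reads in all, and Qpct had none.

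Pvr (Entrez 52118, chr7:19903578-19921143) and Nectin2 (Entrez 19294, chr7:19716644-19749573) lie 154004 bases apart on the minus strand of chromosome 7 and encode ligands of the same pair of lymphocyte receptors. Pvr was the member whose 4 groups did not overlap at any step. Control libraries held 112, 111 and 117 CPM, Doxycycline libraries 106.9, 106.9 and 107.0, dTag13 libraries 121, 125 and 124, and Doxycycline+dTag13 libraries 99.5, 96.6 and 99.3. dTAG-13 went with a higher Pvr level in cells without doxycycline and a lower one in cells with it. The means were 113.2 ± 3.44 CPM in Control, 106.9 ± 0.0989 in Doxycycline, 123.6 ± 2.01 in dTag13 and 98.5 ± 1.65 in Doxycycline+dTag13 (SD, n = 3). Pvr rose by 0.13 on the log2 scale with dTAG-13 alone (SE 0.0293, edgeR adjusted p 0.000247) and fell by 0.12 with dTAG-13 on top of doxycycline (SE 0.0304, adjusted p 0.000787). The difference between these effects, the interaction, was -0.25 (SE 0.0423, adjusted p 2.85e-05). With doxycycline on top of dTAG-13 the Pvr difference was -0.33 on the log2 scale (SE 0.0301, adjusted p 2.09e-11), the only lower call of a member in that comparison.

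The doxycycline difference of Pvr from Control was smaller, at -0.08 (SE 0.0297, edgeR adjusted p 0.0287), and was not firm. It was not called when only library size was scaled (-0.046), without a filter (-0.073) or with only the groups compared (-0.069), nor without Control replicate 3, Doxycycline replicate 1 or 2, or dTag13 replicate 1 or 2 (-0.071 to -0.062). It was -0.063 and not called with the 3 libraries that stood apart left out. The dTag13 difference from Control stayed called but went to 0.219 when only library size was scaled and to 0.079 after the length and GC correction. The nearest genes in pattern to Pvr were Me2 (0.0371), Ghr (0.0487) and Cln8 (0.0489 log2 units), beside 0.122 for the variation of Pvr itself. Me2 had an interaction of -0.27, beside -0.25 for Pvr.

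Nectin2 followed Cd47 in its order of groups more than Pvr, its neighbour. Control libraries held 18.1, 21.6 and 16.7 CPM, Doxycycline libraries 23.4, 23.5 and 23.2, dTag13 libraries 22.4, 23.1 and 23.1, and Doxycycline+dTag13 libraries 23.9, 22.9 and 24.3. Control was the lowest and the most scattered group, and the 3 treated groups lay within 22.4 to 24.3 CPM. Nectin2 rose by 0.31 on the log2 scale with doxycycline (SE 0.0653, edgeR adjusted p 0.000181) and by 0.28 with dTAG-13 (SE 0.0654, adjusted p 0.000287). Between groups that shared the other agent the differences were 0.02 for dTAG-13 (SE 0.0646, edgeR adjusted p 0.796, 95% interval -0.11 to 0.15) and 0.05 for doxycycline (SE 0.0647, adjusted p 0.620, interval -0.07 to 0.18). The interaction was -0.26 (SE 0.0919, adjusted p 0.0360) and was not firm. It was not called with DESeq2 (-0.252), after the length and GC correction (-0.240), or without any 1 of Control replicates 1 and 3, the 3 Doxycycline replicates, Doxycycline+dTag13 replicates 1 and 2, and dTag13 replicates 2 and 3 (-0.266 to -0.180). With the 3 libraries that stood apart left out it was -0.206 and not called. An antisense gene shares 3.86% of the exonic bases of Nectin2.

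Of 7 further nectin and nectin-like genes, 4 were tested and none was called with doxycycline, with or without dTAG-13, where 20.4% and 33.5% of all tested genes were. Nectin1, a cell adhesion molecule of the same family, was at 8.23 ± 0.390 CPM in Control, 9.35 ± 0.164 in Doxycycline, 5.93 ± 0.581 in dTag13 and 5.86 ± 0.943 in Doxycycline+dTag13 (n = 3). It fell by 0.47 on the log2 scale with dTAG-13 (edgeR adjusted p 0.000141) and by 0.66 with dTAG-13 on top of doxycycline (adjusted p 6.41e-07). Neither of these was called after the length and GC correction, at -0.116 and -0.234. Nectin3 was the other called gene, at 0.11 for dTAG-13 on top of doxycycline (adjusted p 0.0309). That call was lost with DESeq2 (0.114) and without any 1 of 6 libraries, Control replicate 2, Doxycycline replicates 1 and 2, Doxycycline+dTag13 replicate 3 and dTag13 replicates 1 and 2 (0.069 to 0.094), while the length and GC correction gave 0.465. Among receptor genes of lymphocytes, Pdcd1, Ctla4 and Cd226 had no read in any library. Tigit and Havcr2 were the only 2 of 12 such genes in the table that were tested. With 397 and 115 reads over the 12 libraries, neither was called in any comparison, where 20.4% to 64.1% of all tested genes were called.

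Tnfrsf14 (Entrez 230979, chr4:154918487-154928620, minus strand) encodes HVEM, which binds the inhibitory receptors BTLA and CD160 and the cytokine LIGHT. Control libraries held 3.14, 4.38 and 3.44 CPM, Doxycycline libraries 3.85, 4.50 and 4.25, dTag13 libraries 4.53, 3.38 and 3.58, and Doxycycline+dTag13 libraries 3.48, 4.52 and 3.86. All neighbouring groups overlapped, on 78 to 141 reads a library. Tnfrsf14 was not called in any comparison with TMM scaling and no correction, at edgeR adjusted p of 0.307 with doxycycline and 0.700 with dTAG-13. The log2 fold changes were 0.20 (95% interval -0.08 to 0.48) and 0.07 (-0.22 to 0.35) in that order. As one of the shortest transcripts, in the shortest eighth of tested genes, it had -0.08 for dTAG-13 on top of doxycycline where the median gene of that eighth had 0.34. After the length and GC correction the same difference was -0.345 and called, with an adjusted p of 0.0403. Of 12 ligands of the tumour necrosis factor superfamily, Tnfsf9 and Tnfsf10 were tested, and Tnfsf14, which encodes LIGHT, had 1 read. Tnfsf10, which encodes TRAIL, rose with doxycycline from 1.36 ± 0.0384 to 3.51 ± 0.323 CPM (log2 fold change 1.36, edgeR adjusted p 4.88e-08, n = 3) and on top of dTAG-13 from 1.19 ± 0.210 to 3.67 ± 0.485 CPM (1.63, adjusted p 2.96e-09). Tnfsf9, which encodes the 4-1BB ligand, was at 11.4 ± 0.204 CPM in Control and 14.4 ± 0.256 with dTAG-13 (0.33, adjusted p 0.000257), a call that the length and GC correction ended (0.155). With doxycycline on top of dTAG-13 Tnfsf9 fell by 0.27 (adjusted p 0.0105), a call lost without Doxycycline+dTag13 replicate 3 (-0.246).

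Lgals9 (Entrez 16859, chr11:78962979-78984924, minus strand) encodes galectin-9, a lectin that binds glycans on T cell receptors such as TIM-3. Its levels separated the groups by doxycycline. Control libraries held 1.19, 1.22 and 1.14 CPM on 38, 38 and 32 reads, and dTag13 libraries 1.03, 1.32 and 1.34 CPM on 32, 41 and 39 reads. Doxycycline libraries held 2.201, 1.43 and 1.62 CPM on 68, 43 and 47 reads, and Doxycycline+dTag13 libraries 2.14, 2.36 and 2.07 CPM on 48, 60 and 65 reads. Every library with doxycycline lay above every library without it. Lgals9 rose with doxycycline by 0.57 on the log2 scale (SE 0.217, edgeR adjusted p 0.0407) and with doxycycline on top of dTAG-13 by 0.83 (SE 0.213, adjusted p 0.00368). The ratios of summed reads per library total were 1.52 (95% counting interval 1.18 to 1.96) and 1.74 (1.36 to 2.22). The first call was lost with DESeq2 (0.561) and without any 1 of the 3 Control replicates, Doxycycline replicate 3 (together 0.535 to 0.613) or Doxycycline replicate 1 (0.375), and with the 3 libraries that stood apart left out (0.587), while the second held under the alternatives run. dTAG-13 gave no call on Lgals9 without doxycycline (0.05, adjusted p 0.860, 95% interval -0.40 to 0.50) or with it (0.32, adjusted p 0.170, -0.08 to 0.71).

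The other galectins were far more abundant per length, with Lgals1 at 3543 CPM per kb, Lgals3 at 189.5 and Lgals8 at 40.6, each averaged over the 12 libraries. Of these 3 tested genes 2 were called higher with doxycycline, 2 with dTAG-13 and 3 with dTAG-13 on top of doxycycline. Of all tested genes 14.8%, 30.0% and 30.7% were called higher in these comparisons, and nothing particular to a list of 3 is read from the counts. Lgals3, which encodes galectin-3, went from 269.7 ± 2.48 CPM in Control to 350.8 ± 6.53 with doxycycline (log2 fold change 0.38, edgeR adjusted p 9.86e-17), to 380.8 ± 10.0 with dTAG-13 (0.50, adjusted p 1.66e-21) and to 406.7 ± 4.88 with both (n = 3). Its group order was that of Cd274, and its interaction was -0.28 (adjusted p 1.47e-08). Lgals8 rose by 0.21 with doxycycline and by 0.31 with dTAG-13, the latter 0.184 after the length and GC correction. That correction ended the calls with dTAG-13 on top of doxycycline for Lgals3 (from 0.21 to 0.027) and for Lgals1 (from 0.30 to -0.056). On top of dTAG-13, doxycycline called Lgals3 (0.09) and Lgals8 (0.08), and both calls were lost when only library size was scaled (0.060 and 0.048). The correction also ended that call for Lgals3 (0.039). For Lgals8 the call was lost with DESeq2 (0.086) as well, and without Doxycycline+dTag13 replicate 1 or 3 or dTag13 replicate 1 or 3 (0.076 to 0.081).

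Ido1 (Entrez 15930, chr8:24584133-24596952, minus strand), the tryptophan-degrading enzyme, was counted at a very low level, in cultures that all had interferon-gamma. Control libraries held 6, 7 and 8 reads, dTag13 libraries 8, 8 and 14, Doxycycline libraries 17, 12 and 16 and Doxycycline+dTag13 libraries 11, 25 and 16. In normalised counts these were 0.188, 0.225 and 0.284 CPM in Control, 0.257, 0.257 and 0.482 in dTag13, 0.550, 0.400 and 0.552 in Doxycycline, and 0.490, 0.982 and 0.511 in Doxycycline+dTag13. Doxycycline and Control did not overlap, and neither did Doxycycline+dTag13 and dTag13. The ratio of summed reads per library total was 2.23 for Doxycycline over Control (95% counting interval 1.2996 to 3.94) and 1.95 for Doxycycline+dTag13 over dTag13 (1.22 to 3.16). dTAG-13 gave ratios of 1.52 without doxycycline (0.842 to 2.79) and 1.33 with it (0.875 to 2.03). The edgeR log2 fold change of Ido1 with doxycycline was 1.104, and on top of dTAG-13 it was 0.99. Ido1 passed the filter only through the groups where it was higher, so no call is read from its tests, and without a filter the doxycycline difference had an adjusted p above the threshold.

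Of 14 further genes of tryptophan transport, breakdown and sensing, 8 were tested. Doxycycline called 2 higher and 2 lower, dTAG-13 called 4 lower, and dTAG-13 on top of doxycycline called 1 higher and 4 lower. These are 4, 4 and 5 of 8 genes, where 33.5%, 62.1% and 64.1% of all tested genes were called, so the dTAG-13 counts lie near or below the share of all genes. Ido2, the paralogue next to Ido1, was at 2.86 ± 0.524 CPM in Control, 5.00 ± 0.769 in Doxycycline, 2.64 ± 0.272 in dTag13 and 3.38 ± 0.143 in Doxycycline+dTag13 (n = 3). It rose by 0.80 on the log2 scale with doxycycline (edgeR adjusted p 2.99e-05) and fell by 0.56 when dTAG-13 followed (adjusted p 0.000906). Ahr, which encodes the aryl hydrocarbon receptor that senses kynurenine, went from 17.8 ± 0.934 CPM in Control to 26.6 ± 1.85 with doxycycline (0.58, adjusted p 9.81e-10) and to 12.8 ± 0.703 with dTAG-13 (-0.47, adjusted p 1.55e-07). With dTAG-13 on top of doxycycline Ahr fell by 0.82 (adjusted p 3.42e-14), and the interaction was -0.35 (adjusted p 0.00654). Slc7a5, the large neutral amino acid transporter that carries tryptophan, fell by 0.76 with dTAG-13, from 841.8 ± 3.95 to 496.7 ± 8.70 CPM (adjusted p 2.11e-29). The downstream enzyme genes Kynu, Kmo and Haao had no read in any library. On top of dTAG-13, doxycycline called Kyat3 (0.26) and Ahr (0.23) higher. The Kyat3 call was lost with DESeq2 (0.257) and without Doxycycline+dTag13 replicate 2 or 3 or dTag13 replicate 1 (0.175 to 0.245), and the Ahr call without Doxycycline+dTag13 replicate 1 or dTag13 replicate 2 (0.218 and 0.196).

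The upstream genes were measured beside Cd274, in a list of 18 that holds the interferon-gamma receptor and its signalling chain and the proteins that stabilise or remove PD-L1. Of the 17 tested, doxycycline called 7 higher and 2 lower, dTAG-13 called 5 higher and 8 lower, and dTAG-13 on top of doxycycline called 5 higher and 7 lower. Doxycycline on top of dTAG-13 called 7 higher and 1 lower. Of all tested genes, 14.8% were higher and 18.7% lower in the first comparison, 30.0% and 32.1% in the second, 30.7% and 33.4% in the third and 10.7% and 9.64% in the fourth. Lower calls outnumber higher ones among all tested genes too in both dTAG-13 comparisons. The median log2 fold changes of the list were 0.08, -0.09, -0.04 and 0.07 in that order. Jak1, the receptor kinase, went from 226.6 ± 4.19 CPM in Control to 290.4 ± 3.88 with doxycycline (0.36, edgeR adjusted p 1.53e-15) and to 215.3 ± 0.212 with both agents, a fall of 0.43 from doxycycline alone (adjusted p 6.40e-19, n = 3). Socs1, a feedback inhibitor of JAK signalling, rose with doxycycline from 14.4 ± 0.866 to 19.3 ± 1.71 CPM (0.41, adjusted p 2.77e-05). Stat3 changed by -0.53 with dTAG-13 on top of doxycycline (adjusted p 5.90e-19). After the length and GC correction these dTAG-13 differences of Jak1 and Stat3 were -0.261 and -0.190, both called. Socs3, a related inhibitor, fell by 0.42 with dTAG-13 (adjusted p 5.33e-08) and had the largest called interaction of the list, 0.55 (adjusted p 3.94e-06). Cmtm4, whose product protects PD-L1 from degradation, changed by -0.36 with dTAG-13 (adjusted p 6.42e-16), a call that the correction ended (-0.055). Doxycycline on top of dTAG-13 called Socs1 (0.24) and Socs3 (0.22) higher. The Socs1 call was lost without Doxycycline+dTag13 replicate 1 or 2 or dTag13 replicate 1 or 2 (0.190 to 0.241), and the Socs3 call without Doxycycline+dTag13 replicate 2 (0.173) or dTag13 replicate 3 (0.175).

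**Figure D4:**
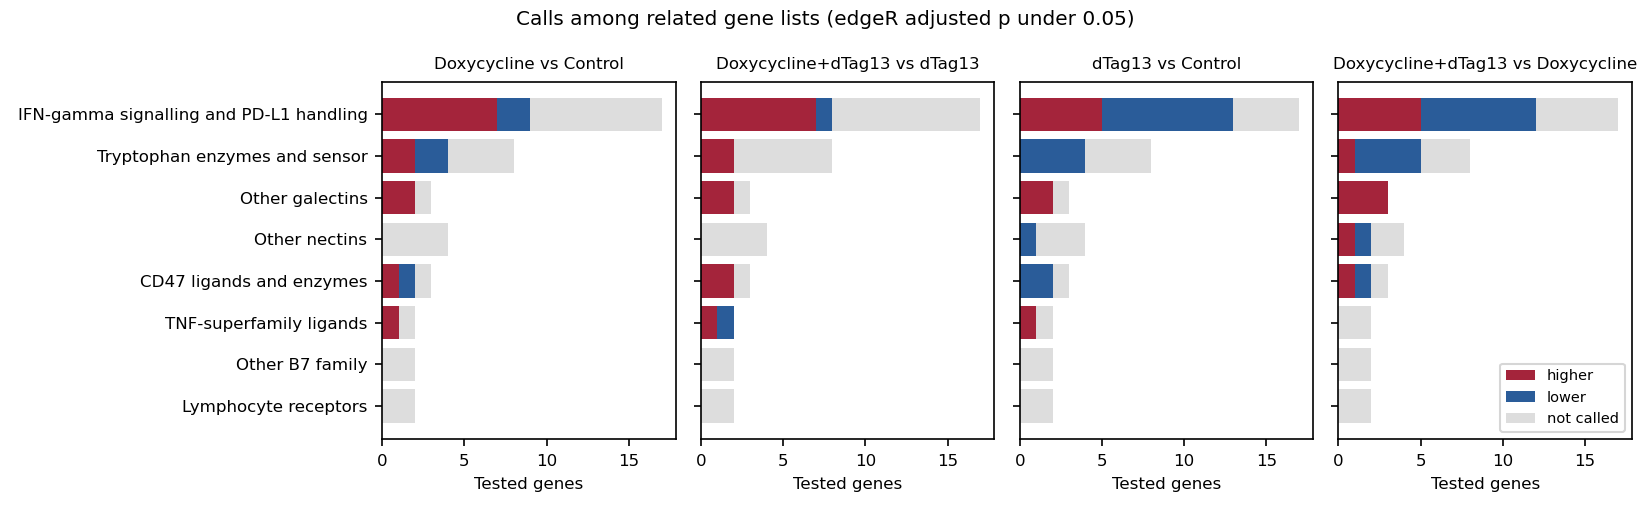
Numbers of tested genes in each related list that were called higher, called lower or not called in the 4 pairwise comparisons, at an edgeR adjusted p under 0.05. With dTAG-13 alone 62.1% of all tested genes were called, and 64.1% with dTAG-13 on top of doxycycline, against 33.5% and 20.4% in the doxycycline comparisons, so bars with few uncalled genes in the dTAG-13 panels are not particular to a list.

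In the dTAG-13 comparisons, the log2 fold change of the median tested gene fell with transcript length, so the members were also read against genes of like length. Cd47, with a longest transcript of 5250 bases, lies in the seventh of 8 length groups, counted from the shortest. The median gene of that group had a log2 fold change of -0.13 with dTAG-13 and -0.20 with dTAG-13 on top of doxycycline, where Cd47 had 0.31 and 0.11. Cd274, in group 5, had 0.20 and 0.22 where its group had medians of -0.02 and -0.04. Pvr, in group 4, had 0.13 and -0.12 beside medians of 0.02 and -0.02. Nectin2, in group 3, had 0.28 and 0.02 beside 0.07 and 0.07. The values of Cd274 and Cd47 lay above the middle 50% of their length groups in both comparisons. The low-count members Ido1 and Lgals9 share group 2, with medians of 0.11 and 0.15, and their intervals cover those medians.

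**Figure D5:**
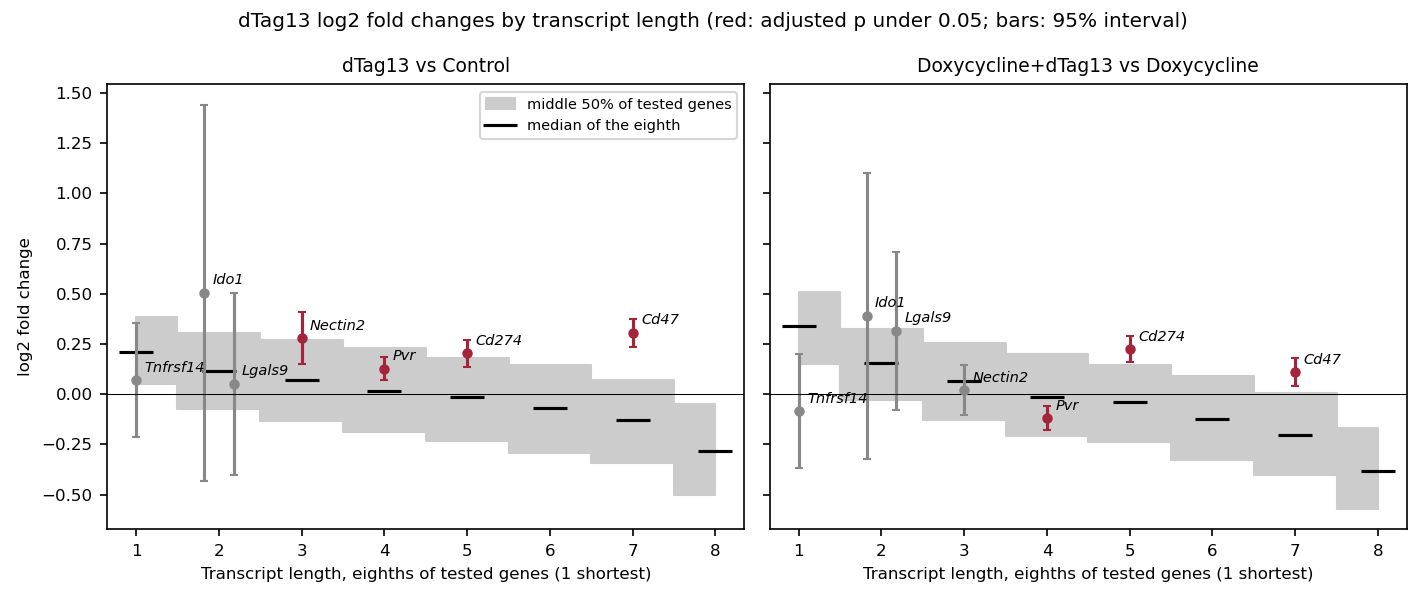
Log2 fold change of the 7 tested genes against the length of their longest transcript, in 8 groups of tested genes from shortest (1) to longest (8), for dTAG-13 without (left) and with (right) doxycycline. Grey bands hold the middle 50% of tested genes and black bars their median, which falls from left to right, while the points (95% intervals, red where called) show Cd274 and Cd47 above the band in both panels.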

How the data were processed

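RNA was measured in 12 libraries, and the counts deposited by the authors are raw reads per gene, without normalization, in 1 table of 27179 Entrez gene IDs. Reads were aligned with Subread, per the file headers. The submitters' processing notes name bcl2fastq 2.17, featureCounts and the build mm10 (GRCm38). Not given in the sources used here are the aligner version, annotation, strand setting and handling of multi-mapping reads. Symbols came from RefSeq GRCm38.p6 (25275 IDs) and GENCODE M21 (18 IDs), and 1886 IDs had none. Gene positions and promoters came from RefSeq, and strands, exons, lengths and GC content from GENCODE M21.

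Genes were filtered with filterByExpr, scaled by TMM (factors 0.965 to 1.035) and fitted with 1 mean per group in edgeR 4.0.16 (R 4.3.3) with robust quasi-likelihood F tests (two-sided), Benjamini-Hochberg adjusted over 12910 genes. CPM are on TMM-scaled library sizes, errors are SD over 3 libraries, and standard errors come from the fold change and its F statistic. The code was tested on simulated data.

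The members, lists and tests were chosen with earlier results of these data known. The 10 members were always named, and of each other list the 2 called genes with the largest absolute log2 fold change per comparison. Pattern likeness used the 3 nearest genes. The alternatives were RLE size factors, scaling by library size only, DESeq2 1.42.0, no filter, a filter of 1 CPM in 3 libraries, only the groups compared, a replicate block, a per-library correction for the length and GC content of transcripts (known for 91.0% of tested genes) by splines with 5 degrees of freedom, leaving out each library, and leaving out together the 3 libraries that stood apart.

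The labels number the libraries 1 to 3 in each group. Deviations of same-numbered libraries from their group means correlated at -0.0208 to 0.0801 over 18 pairs, so the numbers were not taken as pairs. Replicate pairs differed by more than sampling noise (chi-square per gene 2.43 to 8.80), and all were kept. In 3 groups replicate 3 stood apart: replicates 1 and 2 differed by 2.46 in Control, 2.43 in Doxycycline and 2.75 in Doxycycline+dTag13, and their pairs with replicate 3 by 4.48 to 4.68, 5.05 to 5.74 and 8.44 to 8.80. In dTag13 all pairs lay at 3.08 to 3.34.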

Additional observations from a re-analysis of the deposited data

Results flagged for a closer look

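In these genes the dTAG-13 difference with doxycycline departed from that without it, by the edgeR interaction term over all tested genes. Of all tested genes 22.9% were called for that term, so such a call is not particular to these genes. Among the checkpoint ligands the interaction was -0.20 for Cd47, -0.25 for Pvr and -0.26 for Nectin2 on the log2 scale. Cd47 and Nectin2 were called higher with dTAG-13 in cells without doxycycline by 0.31 and 0.28, against 0.11 (called) and 0.02 (not called) in cells with it. Pvr changed sign, with 0.13 called higher without doxycycline and -0.12 called lower with it. Among the related genes the interaction was -0.28 for Lgals3, 0.20 for Lgals1, -0.35 for Tnfsf9 and -0.35 for Ahr. It was 0.32 for Slc7a5, 0.55 for Socs3, -0.28 for Jak1 and 0.32 for Thbs2. The Cd47, Nectin2 and Lgals1 interactions were no longer called after the length and GC correction. Those of Nectin2, Lgals1 and Tnfsf9 also lost their calls under other alternatives, so these 4 are not firm. All groups had 3 libraries, too few to flag a single outlying library by its values in these genes. Single libraries were checked only by leaving each out and by comparing replicate pairs.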

How the results depend on the processing

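Of 420 member fold changes recomputed without single libraries, 374 kept their direction and their side of the threshold, 30 lost a call, 1 gained one and 15 changed sign. Under the other alternatives these numbers were 280, 13, 1 and 5 of 299. Leaving out together the 3 libraries that stood apart was chosen after seeing the data, as was counting members other than Ido1. With Ido1 counted, 6 members were called with doxycycline, where 33.5% of all tested genes were called, and 3 members with those libraries left out. Ido1 passed the filter only through the groups with doxycycline, so counts that hold it are listed here but not read. The count with doxycycline ran from 3 to 6 without single libraries (3 to 5 for the members other than Ido1), that with dTAG-13 stayed at 4, and that with dTAG-13 on top of doxycycline ran from 2 to 3. Doxycycline on top of dTAG-13 ran from 4 to 5 (4 without Ido1) and the interaction from 2 to 3. The length and GC correction lowered the interaction count to 1, and leaving out the 3 libraries lowered the count of members other than Ido1 with doxycycline to 3. With the replicate block the counts of members other than Ido1 were 5, 4, 3, 4 and 3, and the Lgals1 interaction (0.200) lost its call. The Ido1 doxycycline difference (1.106), from which no call is read, had an adjusted p above the threshold there. The calls lost are given beside the results, apart from those of the Ido1 doxycycline difference. That difference crossed the threshold in 9 of the 12 fits without a single library (range 0.967 to 1.256). The 1 call gained without a single library was also of Ido1, for doxycycline on top of dTAG-13. The Ido1 doxycycline difference had no adjusted p in DESeq2 and Ido1 was not tested under the 1 CPM filter. The Lgals1 interaction was also lost with library size only (0.130), after the length and GC correction (0.069) and without any 1 of 7 libraries, and the Tnfsf9 interaction with DESeq2 (-0.337) and without Doxycycline replicate 3 (-0.277). Leaving out the 3 libraries also ended the Nectin3 (0.092), Kyat3 (0.245), Lgals8 (0.076) and Tnfsf9 (-0.25) calls named among the related genes.

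Signs turned only in values that had not been called, apart from Lgals1 (-0.056) and Thbs2 (0.055) after the length and GC correction. That correction gave Lgals9 -0.089 and Tnfrsf14 -0.095 with dTAG-13, and Tnfrsf14 -0.026 for doxycycline on top of dTAG-13. With dTAG-13, Lgals9 turned to -0.011 and -0.021 without dTag13 replicates 2 and 3 (range without single libraries -0.021 to 0.162), and Tnfrsf14 to -0.041 without Control replicate 1 and -0.076 without dTag13 replicate 1 (-0.076 to 0.215). Nectin2 with dTAG-13 on top of doxycycline was -0.0018 without Doxycycline+dTag13 replicate 3 (-0.0018 to 0.043) and -0.0064 without the 3 libraries. Tnfrsf14 for doxycycline on top of dTAG-13 was -0.054 without Doxycycline+dTag13 replicate 2 and -0.034 without dTag13 replicate 2 (-0.054 to 0.189). The Cd274 interaction was -0.050 with library size only, and -0.00092, -0.019, -0.00049 and -0.010 without Control replicate 2, Doxycycline replicate 1, dTag13 replicate 1 and dTag13 replicate 2 (-0.019 to 0.060). The Ido1 interaction was 0.024, 0.031, 0.075 and 0.242 without Control replicate 1, Doxycycline+dTag13 replicates 1 and 3, and dTag13 replicate 3 (-0.502 to 0.242). The cause of these shifts was not tested.

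Over all tested genes, 1917 were called higher and 2414 lower with doxycycline, and 2546 and 1607 with library size only. For dTAG-13 the split of 3877 and 4144 became 5256 and 3115, for doxycycline on top of dTAG-13 1386 and 1244 became 926 and 2132, and for the interaction 1705 and 1245 became 818 and 2424. Depth limits Pdcd1lg2, Cd80 and Cd276, at 3, 5 and 18 reads in all, and leaves Ido1 and Lgals9 with wide intervals.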
